A study of Mus musculus with 24 samples.

Results

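The serum amyloid A genes of the mouse are Saa1, Saa2, Saa3 and Saa4, and each was read by 1 named spot on the array. The members were chosen by gene symbol, not by a measured value, and are 4 of the 20738 genes named on the array. All 4 passed the filter on low signal, which left 16519 genes for testing. Saa1 and Saa3 were above the 40th percentile of the signal in 24 of 24 samples, Saa2 in 14 and Saa4 in 4. Saa4 passed the filter through the 3 rCNT samples and BayTubes 17, so its being higher after rCNT is in part a condition of its being tested.

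Female C57BL/6 mice, 7 to 8 weeks of age, gave the lung RNA, which was hybridised to 12 arrays with 2 dyes on 3 slides, each dye holding a sample of its own. The materials were rCNT, tCNT and BayTubes, which are carbon nanotubes, SES, whose meaning the labels do not give, and Graphite and fullerene. Each was given at 10 µg per day in 50 µl of saline (PBS) on 4 days by oropharyngeal aspiration (a droplet laid in the throat and drawn into the lungs with the breath), and the lungs were collected 24 h after dosing ended. Ctrl mice received PBS alone by the same route. There were 3 samples each of rCNT, tCNT and SES, 4 each of BayTubes, Graphite and fullerene, and 3 of Ctrl, and every sample pooled the RNA of 2 mice, so the spread between single animals was not measured. Lavage fluid was collected in the study too, and whether it came from the same lungs is not given in the sources used here. Sample numbers below are those of the labels, and no number occurs in more than 1 group. Since an array gives no read depth, precision is limited by how many samples a group has and by which samples shared an array.

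Serum amyloid A proteins are small apolipoproteins that ride on high-density lipoprotein and rise in blood during the acute phase response, the change in plasma proteins that follows injury or infection. In the mouse, Saa1 and Saa2 are the main acute phase forms made by the liver, Saa3 is made mostly outside the liver by macrophages, epithelium and fat, and Saa4 encodes a form that is made without stimulation. Interleukin 6, interleukin 1 and tumour necrosis factor induce the acute phase members through STAT3, NF-kB and C/EBP factors. The proteins act on formyl peptide receptors and Toll-like receptors and attract neutrophils and monocytes. Local Saa transcription in the lung is a known response to inhaled particles in mice.

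The 4 genes lie close together on mouse chromosome 7 (RefSeq, GRCm38.p6). Saa3 spans chr7:46711998-46719615, Saa4 chr7:46727992-46732603, Saa1 chr7:46740497-46743181 and Saa2 chr7:46751833-46754313. Saa3, Saa4 and Saa1 are on the minus strand and Saa2 is on the plus strand, so that Saa1 and Saa2 are read away from each other. The RefSeq promoter table places the starts at position 46742980 for Saa1, 46751833 for Saa2, 46715676 for Saa3 and 46732603 for Saa4. For Saa1 and Saa3 these starts lie inside the gene spans given above, so the windows are those of a start downstream of the outermost annotated end. By these starts Saa1 and Saa2 are 8853 bases apart. The promoters of the 4 genes are shown from 250 bases before to 50 bases after these starts. Each is 300 bases, 5′ to 3′ on the strand of the gene, with matches to the C/EBP-like motif TTNNGNAA in capitals.
Saa1 (chr7:46742931-46743230, minus strand): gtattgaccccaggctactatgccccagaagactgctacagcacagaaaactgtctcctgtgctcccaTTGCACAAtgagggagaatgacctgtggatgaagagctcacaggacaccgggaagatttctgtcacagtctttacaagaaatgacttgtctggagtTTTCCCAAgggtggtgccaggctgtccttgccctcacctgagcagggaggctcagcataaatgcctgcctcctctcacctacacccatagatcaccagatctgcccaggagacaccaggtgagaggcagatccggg
Saa2 (chr7:46751583-46751882, plus strand): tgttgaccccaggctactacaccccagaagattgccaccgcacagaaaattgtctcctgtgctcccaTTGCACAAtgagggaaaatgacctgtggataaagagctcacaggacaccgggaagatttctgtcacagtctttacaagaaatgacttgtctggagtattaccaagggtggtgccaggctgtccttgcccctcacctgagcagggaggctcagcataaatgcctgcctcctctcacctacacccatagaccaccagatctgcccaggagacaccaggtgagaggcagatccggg
Saa3 (chr7:46715627-46715926, minus strand): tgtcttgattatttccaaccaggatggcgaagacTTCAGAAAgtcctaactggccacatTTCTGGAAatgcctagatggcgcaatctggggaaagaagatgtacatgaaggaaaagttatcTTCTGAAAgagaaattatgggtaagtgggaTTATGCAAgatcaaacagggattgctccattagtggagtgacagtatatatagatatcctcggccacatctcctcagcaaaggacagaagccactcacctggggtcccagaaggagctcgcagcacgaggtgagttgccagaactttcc
Saa4 (chr7:46732554-46732853, minus strand): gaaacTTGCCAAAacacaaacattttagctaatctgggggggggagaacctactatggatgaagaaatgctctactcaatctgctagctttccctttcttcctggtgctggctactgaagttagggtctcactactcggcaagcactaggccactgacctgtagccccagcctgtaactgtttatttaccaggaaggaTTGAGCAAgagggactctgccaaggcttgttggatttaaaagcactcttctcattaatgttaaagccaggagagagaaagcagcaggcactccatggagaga

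The Saa1 and Saa2 promoters shared 287 of 301 aligned columns, or 95.3%, and the other pairs of members shared between 48.4% and 54.2%. Motifs were searched on both strands. The C/EBP-like motif matched at positions -182 and -86 from the start of Saa1, and at -183 from the start of Saa2. In the Saa3 promoter it matched 4 times, at -216, -191, -129 and -99, and in the Saa4 promoter at -245 and -52. This short motif occurred in 40.7% of 32544 mouse promoters of the same length. The letters GGGNNTTTC (NF-kB-like, in 4.4% of promoters), TTCNNNGAA (STAT-like, 8.3%) and TATAAA (the core promoter box, 13.6%) were not present in the window of any of the 4 genes. A match is a run of letters and was not tested as a binding site. The probe sequences were not analysed here, so how far the Saa1 and Saa2 spots each also bind the RNA of the other gene was not tested, and the values of this near-identical pair are uncertain to that extent.

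Saa3 had the largest change against Ctrl of the 4 members after each material. Its log2 signal was 14.56, 14.55 and 14.95 in rCNT 4, 5 and 6, against 7.94, 7.99 and 8.30 in Ctrl 1, 2 and 3. It was 10.28, 10.38 and 10.63 in tCNT 7, 8 and 9, and 8.85, 9.03 and 9.58 in SES 10, 11 and 12. It was 11.60, 10.67, 11.52 and 11.78 in BayTubes 17 to 20, and 10.18, 10.69, 10.73 and 11.48 in Graphite 13 to 16. Fullerene 21 had 12.35, while fullerene 22, 23 and 24 had 8.90, 8.79 and 8.93. Every sample given a material was above the highest Ctrl sample. The distance from the lowest sample of the group to the highest Ctrl sample was 6.25 for rCNT, 1.98 for tCNT and 0.55 for SES. It was 2.36 for BayTubes, 1.88 for Graphite and 0.49 for fullerene. Here and below, the share of all genes that separate from Ctrl in this way was not computed. With 3 or 4 samples in a group and the same 3 Ctrl samples throughout, separation alone is weak.

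**Figure D1:**
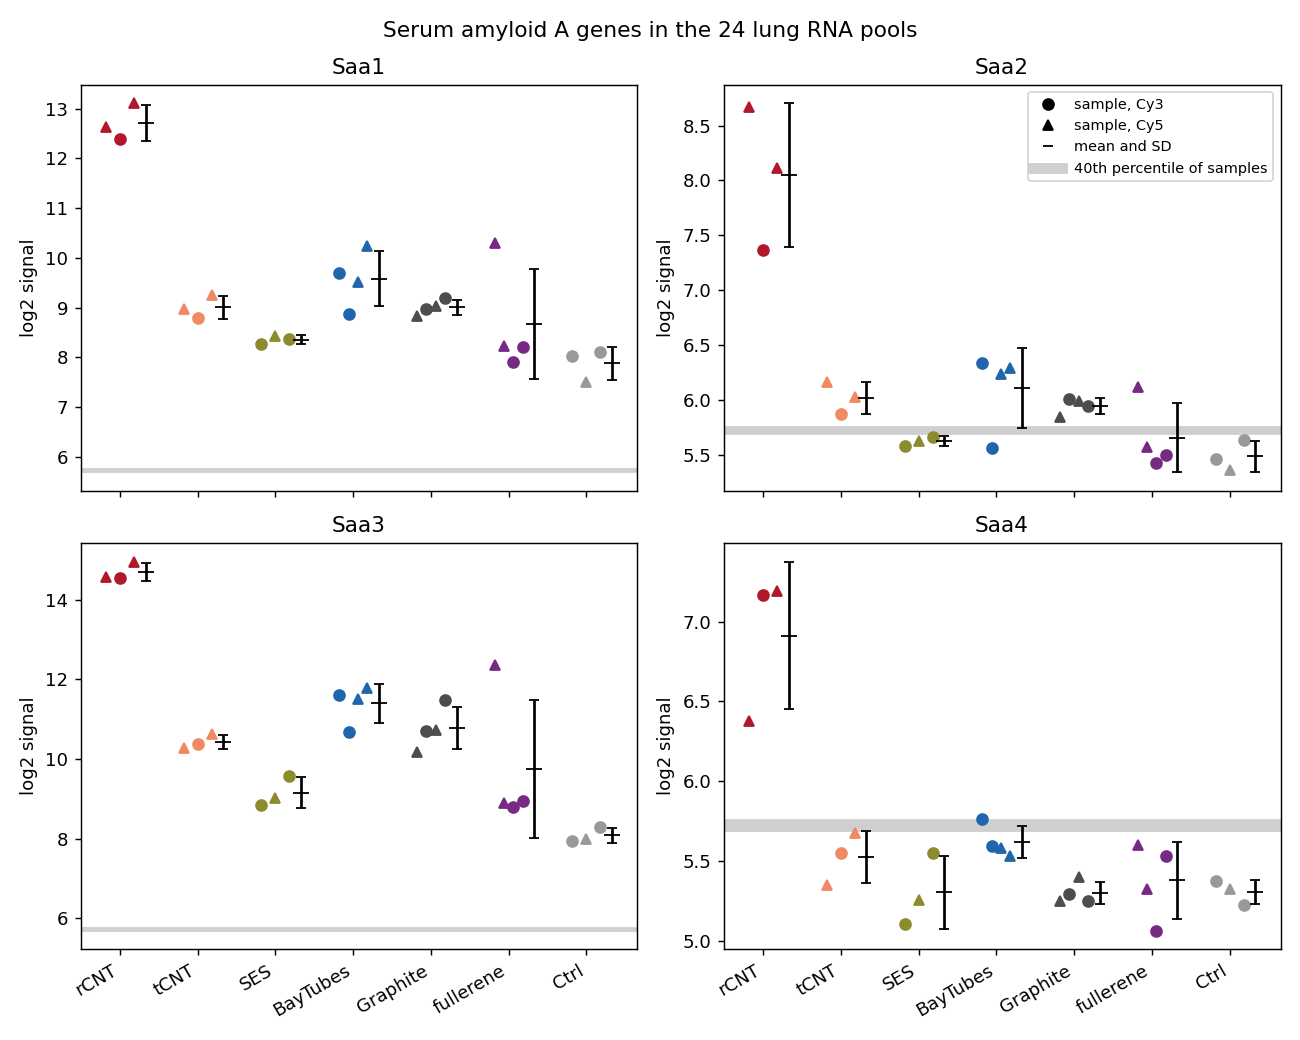
Log2 signal of the 4 serum amyloid A genes (y axis, a scale of its own for each gene) in each of the 24 samples, by group (x axis). Circles are Cy3 and triangles Cy5 samples, the bar beside them is the mean and SD, and the grey band is the range of the samples' 40th percentiles, from 5.69 to 5.75. All 3 rCNT samples lie above every other sample for each gene, and fullerene 21 lies apart from its group for Saa1 and Saa3.

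Saa1 followed the same order of groups at the top. Its log2 signal was 12.64, 12.39 and 13.11 in rCNT 4, 5 and 6, against 8.02, 7.50 and 8.11 in Ctrl 1, 2 and 3. It was 9.70, 8.88, 9.52 and 10.23 in BayTubes 17 to 20. The tCNT samples lay between 8.80 and 9.26, the Graphite samples between 8.82 and 9.19, and the SES samples between 8.26 and 8.44. All of these samples were above the highest Ctrl sample. Fullerene 21 had 10.30, and fullerene 22, 23 and 24 had 8.24, 7.90 and 8.22, a range that overlapped that of Ctrl.

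Saa2 and Saa4 were dim outside the rCNT group. Saa2 had a log2 signal of 8.67, 7.37 and 8.12 in rCNT 4, 5 and 6, against 5.46, 5.36 and 5.64 in Ctrl 1, 2 and 3. BayTubes 17, 19 and 20 had 6.34, 6.24 and 6.29, while BayTubes 18 had 5.56 and overlapped Ctrl. The tCNT samples (5.87 to 6.16) and the Graphite samples (5.85 to 6.00) were above Ctrl, and the SES (5.58 to 5.66) and fullerene samples (5.43 to 6.12) overlapped it. Saa4 had 6.38, 7.17 and 7.19 in rCNT 4, 5 and 6, against 5.37, 5.33 and 5.22 in Ctrl 1, 2 and 3. In the 5 other material groups Saa4 lay between 5.06 and 5.76, and only the BayTubes samples (5.53 to 5.76) were all above Ctrl. Signals this close to the dim end of the array have no detection call in the deposited values, and a change at that end may be smaller on the array than in the RNA.

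After rCNT all 4 members rose against Ctrl (limma, Benjamini-Hochberg over 16519 genes), where 12.4% of all genes tested were called higher and 9.41% lower. The fitted log2 change was 5.89 ± 0.60 (SE) for Saa3, or 59.5-fold (adjusted p = 2.18e-06), and 4.37 ± 0.40 for Saa1, or 20.7-fold (adjusted p = 5.76e-07). It was 2.31 ± 0.22 for Saa2 (adjusted p = 1.11e-06) and 1.58 ± 0.18 for Saa4 (adjusted p = 5.94e-06). Ordered by the change, Saa3 was the third highest of the 16519 genes and Saa1 the 15th, with Saa2 at place 86 and Saa4 at place 245. Saa4 was tested only because its 3 rCNT samples passed the filter, so its adjusted p and place are no independent support. Group means of Saa3 were 14.69 ± 0.23 in rCNT and 8.08 ± 0.20 in Ctrl (SD, n = 3 each), a plain difference of 6.61, or 97.9-fold. The fit reads each sample in part relative to the sample that shared its array, and its value is the smaller. Without fullerene 21, the array partner of rCNT 5, the fitted Saa3 change was 6.42 (adjusted p = 9.75e-11). That fit was added after the data were seen, and its adjusted p depends on the Saa3 value that singled out fullerene 21. With array as a fixed term, which compares samples only through those on the same array, the change was smaller, at 4.38 for Saa3 (adjusted p = 0.0147) and 3.39 for Saa1 (adjusted p = 0.0103). Within slide 1, which held 1 rCNT and 1 Ctrl sample, the Saa3 value was 6.2, and within slide 2, which held 1 rCNT and 2 Ctrl samples, it was 7.27. No test is given for groups of 1 sample.

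After BayTubes Saa3 and Saa1 rose, where 2.16% of genes were called higher and 1.02% lower. The log2 change was 3.13 ± 0.50 for Saa3, or 8.74-fold (adjusted p = 0.0012), the second highest of all genes tested. It was 1.63 ± 0.33 for Saa1, or 3.10-fold (adjusted p = 0.0069), at place 18. Saa2 (0.51 ± 0.18, adjusted p = 0.172) and Saa4 (0.29 ± 0.15, adjusted p = 0.399) did not pass the threshold. The Saa1 call was lost without Ctrl 2 (1.31, adjusted p = 0.137). Within slide 1, where 3 BayTubes samples were set against Ctrl 2 alone, the values were 2.85 for Saa3 and 1.73 for Saa1. Within slide 2, where BayTubes 20 alone, the highest of its group for both genes, was set against 2 Ctrl samples, they were 4.03 and 2.27.

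After Graphite only Saa3 of the 4 members passed the threshold, where 0.545% of genes were called higher. Its log2 change was 2.50 ± 0.53, or 5.65-fold (adjusted p = 0.0273), again the second highest of all genes. Saa1 changed by 0.97 ± 0.35 (adjusted p = 0.14), Saa2 by 0.29 ± 0.20 and Saa4 by 0.02 ± 0.16. The Saa3 call was lost without Graphite 16 (2.23, adjusted p = 0.0779), Graphite 13 (2.87, 0.0558), Ctrl 1 (2.59, 0.268), Ctrl 2 (2.36, 0.138) or Ctrl 3 (2.55, 0.0637), and with array as a fixed term (1.61, adjusted p = 0.192). Within slide 1, with 2 Graphite samples and 1 Ctrl sample, it was 2.74. Within slide 2, with 2 samples of each, it was 2.57 (adjusted p = 0.000152). Graphite 13, the lowest of its group for Saa3, had 4868 distinct signal values over its spots, against 7864 in the sample with the next fewest. What that does to its values was not tested.

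No member passed the threshold after tCNT, fullerene or SES, where 0.684%, 0.151% and 0% of genes were called higher. The SES comparison had 0 calls by limma in either direction. An unadjusted p under 0.05 was found for 747 of 16519 genes, fewer than that threshold is set to pass when no gene changes. The Saa3 change was 2.19 ± 0.60 after tCNT (adjusted p = 0.111, 95% interval 0.94 to 3.44), at place 11 of all genes. It was 1.46 ± 0.56 after fullerene (adjusted p = 0.313, interval 0.30 to 2.63), at place 13, and 1.06 ± 0.59 after SES (adjusted p = 0.976, interval -0.17 to 2.29), at place 28. Saa1 changed by 0.98 ± 0.40 after tCNT (adjusted p = 0.411), 0.65 ± 0.37 after fullerene and 0.53 ± 0.39 after SES. A fit without fullerene 21 was added after its outlying Saa3 and Saa1 values were seen. In it Saa3 (2.21, adjusted p = 0.0011) and Saa1 (0.99, adjusted p = 0.0436) passed after tCNT, and Saa1 passed after Graphite (1.02, adjusted p = 0.0214). Leaving that sample out lowers the pooled spread of these same genes, with the SE of Saa3 after tCNT at 0.28 rather than 0.60. These adjusted p-values therefore depend on the values that singled it out. The 6 comparisons share the 3 Ctrl samples, so their likeness in order is not independent.

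**Figure D2:**
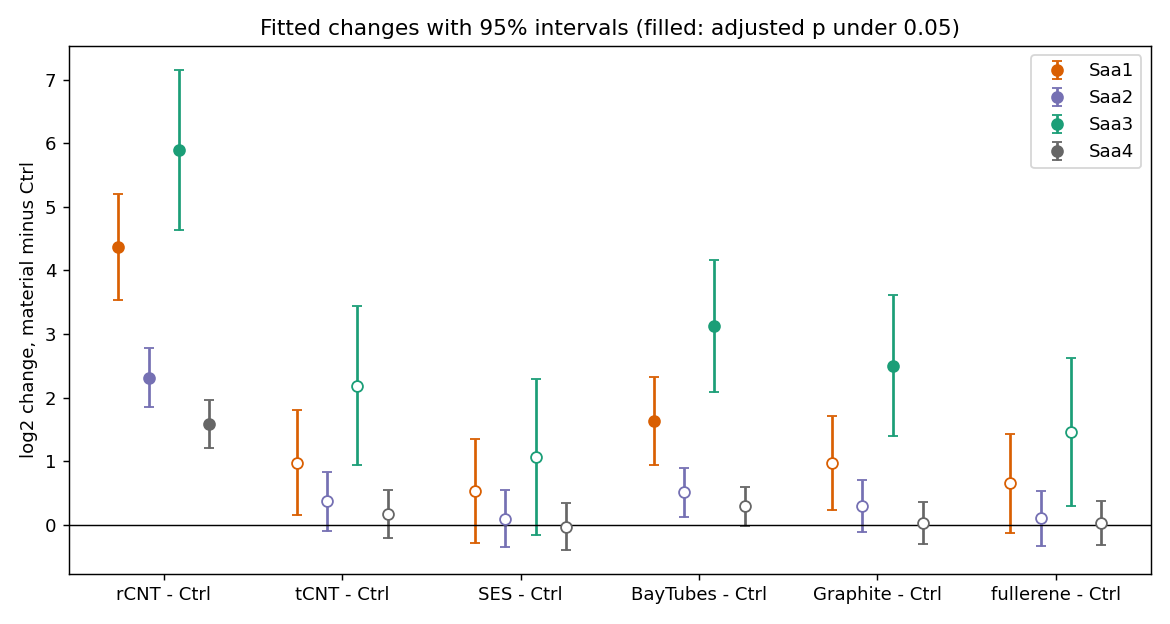
Fitted log2 change of each serum amyloid A gene (y axis) for each material minus Ctrl (x axis), with 95% intervals. Filled points passed an adjusted p under 0.05: all 4 genes after rCNT, Saa1 and Saa3 after BayTubes, and Saa3 after Graphite.

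Fullerene 21 stood apart from the other fullerene samples in the family. It was above their median by 3.46 for Saa3, 2.08 for Saa1, 0.62 for Saa2 and 0.27 for Saa4. It was hybridised in Cy5 on the array whose Cy3 sample was rCNT 5, with a Saa3 signal of 14.55. Over the 2046 genes called higher after rCNT, fullerene 21 was the highest of its group for 48.9% and lay a median of 0.15 above the others, against 25.2% and 0.01 over all genes. Some samples that did not share an array with rCNT were also often the highest of their group for these genes. BayTubes 17 was the highest of its group for 43.7%, a median of 0.15 above the others, against 20.7% over all genes. For BayTubes 20 this was 43.4% and also 0.15, against 37.6% over all genes, and tCNT 8 was the highest of its group for 46.6%, against 32.4% over all genes. Graphite 16 and Graphite 14 also shared an array with an rCNT sample. For those 2046 genes they were the highest of their group for 14.4% and 23.5%, against 18.0% and 31.6% over all genes, and their Saa3 signals were 0.79 above and 0.04 below the median of the other Graphite samples. The part of the shared array in the values of fullerene 21 was not tested. Without fullerene 21 the Saa3 change after fullerene was 0.70, against 1.46 with it. A fit without all 3 samples that shared an array with rCNT was added after the data were seen. The Saa3 change in it was 6.50 for rCNT (adjusted p = 8.21e-11), 2.21 for tCNT (0.000369) and 0.98 for SES (0.35). It was 3.19 for BayTubes (1.73e-07), 2.26 for Graphite (0.0016) and 0.70 for fullerene (0.37). This fit also leaves out fullerene 21, which was picked out by its own Saa3 value. Its adjusted p-values are therefore no independent support.

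**Figure D3:**
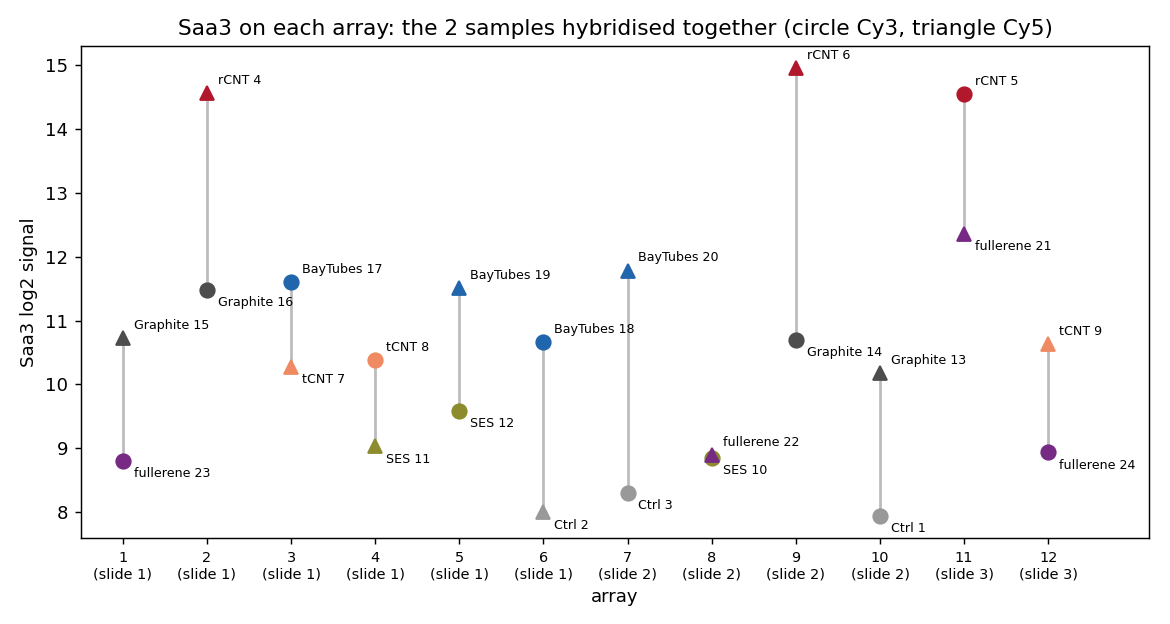
Saa3 log2 signal (y axis) of the 2 samples hybridised together on each of the 12 arrays (x axis, with the slide), joined by a grey line. Circles are Cy3 and triangles Cy5 samples. The 3 rCNT samples shared arrays with Graphite 16, Graphite 14 and fullerene 21, and Ctrl samples were on slides 1 and 2.

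Set against each other material, rCNT had higher signals of all 4 members. The Saa3 difference was 3.71 ± 0.59 against tCNT (adjusted p = 0.000658), 4.84 ± 0.60 against SES (adjusted p = 2.88e-05) and 2.77 ± 0.57 against BayTubes (adjusted p = 0.00313). It was 3.40 ± 0.49 against Graphite (adjusted p = 5.2e-05) and 4.43 ± 0.52 against fullerene (adjusted p = 7.94e-06). For Saa1 the difference lay between 2.74 (against BayTubes) and 3.84 (against SES), for Saa2 between 1.80 and 2.22, and for Saa4 between 1.29 and 1.61. Saa4 was tested only because of its rCNT samples, so its differences are no independent support. In these comparisons 5.71% (tCNT), 10% (SES), 8% (BayTubes), 12.8% (Graphite) and 12% (fullerene) of all genes were called higher in rCNT. With array as a fixed term no member passed against BayTubes (Saa3 1.23, adjusted p = 0.387; Saa1 1.64, adjusted p = 0.13) or tCNT (Saa3 2.27, adjusted p = 0.247; Saa1 2.44, adjusted p = 0.109), and Saa3 was at 3.29 (adjusted p = 0.0568) against SES.

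No member passed in the 10 comparisons among the 5 other materials, where few genes passed at all. The share of genes called in either direction was 0.0121% for tCNT against SES, 0.0908% against BayTubes, 0.0303% against Graphite and 0.145% against fullerene. It was 0.0303% for SES against BayTubes, 0% against Graphite and 0.0605% against fullerene, 0.0303% for BayTubes against Graphite, 0.0363% for BayTubes against fullerene, and 0.0303% for Graphite against fullerene. The order of mean Saa3 signals was rCNT, BayTubes (11.39 ± 0.50), Graphite (10.77 ± 0.54), tCNT (10.43 ± 0.18), fullerene (9.75 ± 1.74), SES (9.15 ± 0.38) and Ctrl. That of Saa1 was rCNT (12.71 ± 0.37), BayTubes (9.58 ± 0.56), tCNT (9.01 ± 0.23), Graphite (9.00 ± 0.15), fullerene (8.67 ± 1.10), SES (8.36 ± 0.09) and Ctrl (7.88 ± 0.33). Saa2 kept the order of Saa1, and for Saa4 the order was rCNT, BayTubes, tCNT, fullerene, Ctrl, SES and Graphite, with the last 3 within 0.01 of each other. Of Saa3, the neighbours BayTubes and Graphite differed by 0.63 (95% interval -0.45 to 1.71, adjusted p = 0.613), and tCNT and Graphite by -0.31 (interval -1.47 to 0.85, adjusted p = 0.871). SES was below BayTubes by a difference of -2.07 (interval -3.16 to -0.98, adjusted p = 0.211), and BayTubes was above fullerene by 1.67 (interval 0.60 to 2.74, adjusted p = 0.777). Saa3 was the gene with the highest difference of all 16519 for BayTubes over fullerene and the lowest for SES against BayTubes, though neither passed the adjusted threshold. Without fullerene 21 these differences were 2.48 for BayTubes over fullerene (adjusted p = 0.00024) and -2.23 for SES against BayTubes (adjusted p = 0.000539). Saa3 also passed for Graphite over fullerene (1.89, adjusted p = 0.00386) and tCNT over fullerene (1.52, adjusted p = 0.0143). Fullerene 21 was picked out by its own Saa3 value, so these adjusted p-values are no independent support. BayTubes was above Graphite for Saa3 by 0.11 within slide 1 (3 and 2 samples), and by 1.46 within slide 2, where BayTubes 20 was the only BayTubes sample.

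The sizes of the changes were compared between members within each sample. The plain change of Saa3 over Ctrl exceeded that of Saa1 by 1.78 for rCNT, 1.22 for tCNT, 0.60 for SES, 1.61 for BayTubes, 1.57 for Graphite and 0.88 for fullerene. In each of these 6 comparisons the samples of the 2 groups did not overlap, with exact 2-sided permutation p = 0.1 where both groups had 3 samples and 0.0571 where a group had 4, which are the smallest p these sizes allow (adjusted p = 0.111 over 21 comparisons). Between rCNT and BayTubes the excess of Saa3 over Saa1 differed by 0.17 (exact permutation p = 0.343). The change of Saa1 exceeded that of Saa2 by 2.27 after rCNT and 1.09 after BayTubes, and that of Saa3 exceeded that of Saa4 by 5.01 after rCNT and 3.00 after BayTubes. Saa2 and Saa4 were near the dim end in Ctrl, where a change can be understated, so these last sizes mix the genes with their place on the scale.

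Across the samples Saa1 and Saa3 moved most closely together. Over all 24 samples, which share arrays and the large rCNT difference, Pearson's r was 0.97 between Saa1 and Saa3, 0.95 between Saa1 and Saa2, 0.90 between Saa1 and Saa4, 0.90 between Saa2 and Saa3, 0.84 between Saa2 and Saa4 and 0.83 between Saa3 and Saa4. Over the 21 samples without rCNT it was 0.95 for Saa1 and Saa3 and 0.90 for Saa1 and Saa2, and it lay between 0.51 and 0.59 for the 3 pairs with Saa4. For deviations from the group means it was 0.92 for Saa1 and Saa3, to which fullerene 21 contributes, 0.64 for Saa1 and Saa2, and between -0.28 and 0.36 for the pairs with Saa4. These values are descriptions and carry no test.

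The genes most like each member were taken by Pearson's r over the 24 samples. For Saa3 they were Saa1, Ly6i (a Ly6 surface protein, r = 0.956), Ccl2 (a chemokine that draws monocytes, 0.955), Ccne1 (cyclin E1, 0.951) and Cd14 (the endotoxin co-receptor, 0.95). For Saa1 they were Ccl7 (a monocyte chemokine, r = 0.973), Ly6i (0.972), Saa3, Chl1 (a cell adhesion molecule, 0.966) and Cxcl13 (a B cell chemokine, 0.965). For Saa2 they were Orm1 (orosomucoid, an acute phase protein, r = 0.955), Saa1, Ly6i (0.95), Fcrls (0.948) and Ccl7 (0.947). For Saa4 they were Il6 (interleukin 6, r = 0.96), Ocstamp (0.951), Adora3 (0.944), Inhba (0.942) and Phox2a (0.938). Each of these genes also rose after rCNT (adjusted p = 6.89e-05 or lower), and the r values rest on that shared difference among others. By deviations from the group means the closest to Saa3 were Saa1 (r = 0.919), Ly6i (0.871) and Cxcl3 (0.845), and the closest to Saa1 were Saa3, Cxcl3 (0.85) and Mcm5 (0.824).

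Of the cytokines that induce Saa genes, 4 of 9 measured rose after rCNT, with a median log2 change of 0.55, against -0.015 over all genes tested, of which 12.4% rose and 9.41% fell. Il6 changed by 3.08 ± 0.24 (adjusted p = 9.24e-08), Il1b by 1.88 ± 0.43 (0.00361), Tnf by 1.36 ± 0.27 (0.0011) and Osm, an interleukin 6 relative, by 0.71 ± 0.20 (0.016). Mean Il6 signals were 8.63 in rCNT and 5.53 in Ctrl. None of the 9 passed after BayTubes, where Il6 changed by 0.70 (adjusted p = 0.0556). Il17a was below the filter, with a highest log2 signal of 5.78 in any sample.

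Of the 18 cytokine receptors and signalling genes that lead to Saa transcription, 4 rose and 2 fell after rCNT, with a median of 0.01. Over all genes 12.4% rose and 9.41% fell, so the count that fell is near the share over all genes and the count that rose is not far above it. Socs3, a feedback inhibitor of interleukin 6 signalling, rose by 1.41 ± 0.22 (adjusted p = 0.000138), and Nfkb2, an NF-kB subunit, by 0.80 ± 0.16 (0.00116). The others that rose were Osmr, the oncostatin M receptor (0.65, adjusted p = 0.00793), and Il1r1, the interleukin 1 receptor (0.58, 0.0385). The genes that fell were Il6ra, the interleukin 6 receptor (-0.72, adjusted p = 0.0179), and Cebpa (-0.30, 0.0348). Stat3 (0.33, adjusted p = 0.12), Cebpb (0.38, 0.208) and Cebpd (-0.62, 0.0642) did not pass after rCNT, and Cebpd fell after Graphite (-1.01, adjusted p = 0.0228).

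Of the 11 measured receptors and binding partners of the proteins, none rose and 2 fell after rCNT, with a median of -0.25. Over all genes 12.4% rose and 9.41% fell, and in a list of this size the counts are not far from those shares. Fpr1, a formyl peptide receptor of neutrophils and macrophages, changed by -0.85 ± 0.20 (adjusted p = 0.00395), with mean signals of 9.42 in rCNT and 10.41 in Ctrl. Ager, a pattern receptor made by alveolar type 1 cells, changed by -0.94 ± 0.23 (0.00633). Fpr2, the formyl peptide receptor best known for binding serum amyloid A (-0.21, adjusted p = 0.444), and Tlr2 (0.38, 0.184) did not pass. None of the 11 passed after BayTubes. Apoa1, which shares the lipoprotein with serum amyloid A, was below the filter.

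Of 12 listed genes that serum amyloid A proteins are known to induce in leukocytes, 9 were measured. Ccl20, Csf3 and Il23a were below the filter. Of the 9 measured, 8 rose after rCNT, with a median of 2.31 against -0.015 over all genes. After BayTubes 5 rose, with a median of 1.09 against -0.006 over all genes. The share of all genes called higher was 12.4% after rCNT and 2.16% after BayTubes. The neutrophil chemokine Cxcl5 changed by 5.03 ± 0.36 after rCNT (adjusted p = 7.86e-08) and 1.32 after BayTubes (0.0138). Ccl2 changed by 4.90 ± 0.38 after rCNT (9.29e-08), 2.07 after BayTubes (0.000843) and 1.55 after Graphite (0.0312), where it was the only gene of the list to pass. Il33, an alarm cytokine of epithelium, changed by 2.31 ± 0.22 after rCNT (6.51e-07) and 1.09 after BayTubes (0.00145). These genes also answer to other inflammatory signals, and whether serum amyloid A took part was not tested.

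Of 16 other acute phase genes measured, 12 rose after rCNT, with a median of 1.13 against -0.015 over all genes. After BayTubes 3 rose, and after tCNT 2. Over all genes 12.4% were called higher after rCNT, 2.16% after BayTubes and 0.684% after tCNT. Orm1 changed by 2.37 ± 0.25 (adjusted p = 2.32e-06), Lcn2, which binds bacterial iron carriers, by 2.29 ± 0.30 (2.7e-05), Cd14 by 2.00 ± 0.17 (2.33e-07) and Hp, haptoglobin, by 0.63 ± 0.17 (0.0113). After BayTubes Lcn2 (1.21, adjusted p = 0.00814), Cd14 (0.97, 0.000448) and Fgg, the fibrinogen gamma chain (0.70, 0.0379), rose. Crp and Apcs, the pentraxins of the liver response, were below the filter, with highest signals of 5.44 and 5.70 in any sample. Fga and Fgb, the other fibrinogen chains, were below it too, with highest signals of 5.61 and 6.25.

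**Figure D4:**
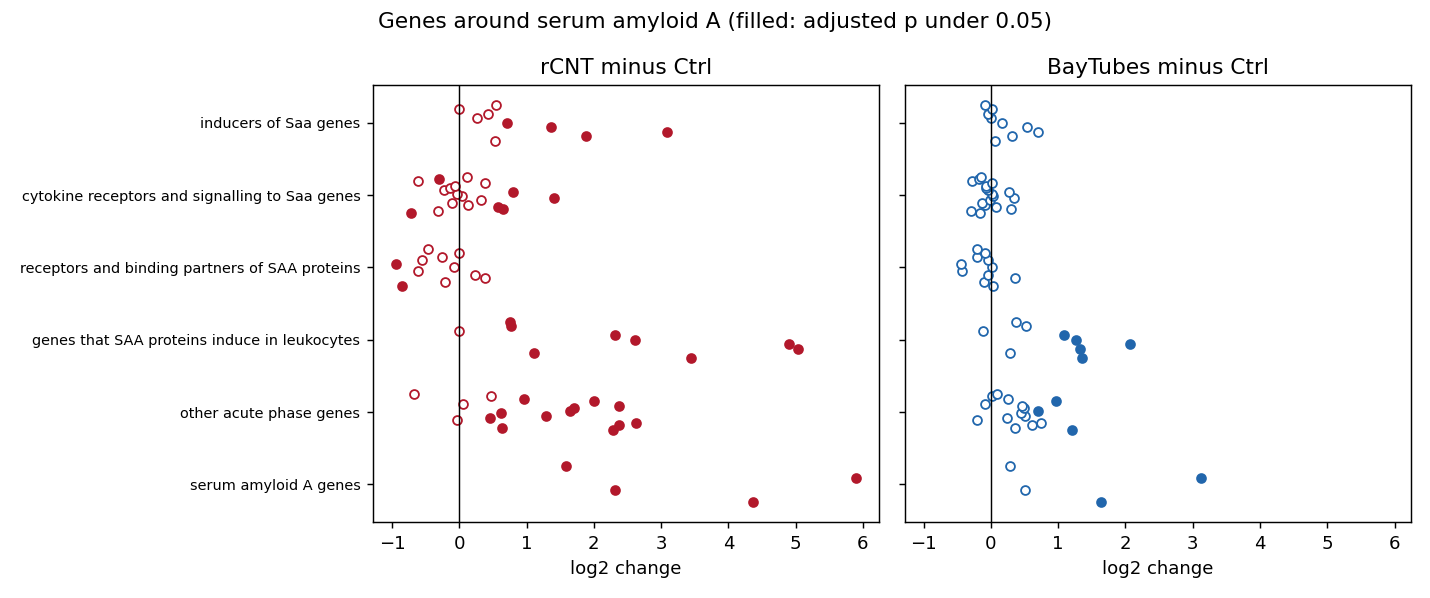
Log2 change of each measured gene (x axis, 1 point a gene) in the lists around serum amyloid A (y axis), for rCNT minus Ctrl on the left and BayTubes minus Ctrl on the right. Filled points passed an adjusted p under 0.05. The inducing cytokines and signalling genes passed in part after rCNT and not after BayTubes. Of 9 measured genes that serum amyloid A is known to induce, 5 passed after BayTubes, where 2.16% of all genes were called higher.

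Markers of other cells were read beside these changes. After rCNT 12.4% of all genes rose and 9.41% fell, so 1 gene in a direction in lists as short as these is close to the share over all genes. Sftpc, the surfactant gene of alveolar type 2 cells, was bright in every group and had mean signals of 17.42 in rCNT and 17.62 in Ctrl (adjusted p = 0.353). Of 8 measured hepatocyte markers 1 rose and 1 fell after rCNT (Ahsg 1.38 and Cyp2e1 -1.04). The mean signal of the list per sample was 7.37 to 7.85 in rCNT and 7.34 to 7.39 in Ctrl. Alb was dim in both groups (5.65 in rCNT and 5.92 in Ctrl), while Apoa2 was brighter (11.36 in rCNT and 11.01 in Ctrl). Ttr and Cps1 of that list were below the filter. Of 6 fat cell markers 1 rose and 1 fell (Fabp4 1.16 and Cidec -1.59), and Adipoq changed by 0.17 (adjusted p = 0.856).

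Of 7 measured neutrophil markers 3 rose (Il1r2 by 2.14, Retnlg by 1.94 and Mmp8 by 1.20) and 1 fell after rCNT (Csf3r by 0.50, adjusted p = 0.0136). Cxcr2 (0.94, adjusted p = 0.162), S100a8 (0.47, 0.561) and S100a9 (-0.67, 0.605) did not pass. The mean signal of the list per sample was 10.69 to 11.35 in rCNT and 10.17 to 10.27 in Ctrl. Ly6g was not named on the array. Of 7 monocyte and macrophage markers 3 rose and 2 fell after rCNT. Those that rose were Cd14, which is also on the acute phase list (2.00), Ccr2 (1.76) and Adgre1 (0.99), and those that fell were Lyz2 (-0.94) and Itgam (-0.70). Cd68 (0.63, adjusted p = 0.0946) and Csf1r (-0.06, 0.858) did not pass. The mean signal of the list was 11.93 to 12.10 in rCNT and 11.28 to 11.39 in Ctrl. After BayTubes no neutrophil marker passed and Cd14 was the only monocyte and macrophage marker that did. Of 5 alveolar macrophage markers 2 rose after rCNT (Itgax 1.27 and Chil3 1.60), while Marco changed by -0.52 (adjusted p = 0.326). Of 6 endothelial markers 5 fell, with Ramp2 at -0.80 and Kdr at -0.76. Fullerene 21 had the highest mean of its group for the neutrophil (10.78) and the monocyte and macrophage list (11.94), while the neutrophil list averaged 12.08 in Graphite 15 and 9.98 to 10.33 in the other Graphite samples, and Saa3 in Graphite 15 was 10.73, within the range of its group. Of 5 club cell markers 1 rose and 1 fell after rCNT (Muc5b 2.51 and Cyp2f2 -1.27), of 7 alveolar type 2 markers 1 rose and 1 fell (Sftpd 1.01 and Abca3 -0.55), and of 6 fibroblast markers 1 fell (Pdgfra -0.95). None of 7 heart muscle markers passed after any material. In whole lung, more cells that make a transcript and more of it per cell cannot be told apart, and the part of these cell types in the serum amyloid A values was not tested.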

How the data were processed

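The authors deposited 1 log2 signal per spot and sample for 62976 spots and 24 samples. Per the submitters' processing notes they used Agilent Feature Extraction and limma; versions, settings and detection calls are not given in the sources used here. Between samples the sorted values differ by no more than 0.086. Of 31465 named spots, 29050 matched a RefSeq table (GRCm38.p6) by accession, 2061 by symbol and 349 by synonym. Each gene is read from its brightest spot, and genes over the 40th percentile of 3 or more samples were tested (16519 of 20738).

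Changes were fitted with limma 3.58.1 (R 4.3.3, statmod 1.5.0) over all samples, with terms for group and dye and array as a random block (correlation 0.399, 16 residual and 3.54 prior degrees of freedom). Tests were 2-sided and adjusted by Benjamini-Hochberg over the genes of each comparison, at a threshold of 0.05. Fits on fewer samples took their array correlation from the fit on all 24, and a group left with 1 sample was assumed to vary like the others. Differences between members used exact permutation tests, which took no account of shared arrays or dyes. On simulated data for rCNT against Ctrl (16519 genes), 82% of genes changed 2-fold were called. Those genes were drawn from all genes tested, whose median SE was 0.16, against 0.60 for Saa3 and 0.40 for Saa1. The 82% therefore does not apply to these members. Alternatives changed the array block, dye term, slide, filter, scaling, spot of a gene, variance prior and samples.

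Genes that could be named were the 5 most correlated with each member, the 3 most correlated by deviations, the 2 of each list with the smallest p after rCNT and after BayTubes, and a fixed set of pathway genes. Osm, Il1r1, Il6ra, Fgg, Csf3r, Cxcr2, S100a8, S100a9, Itgam, Lyz2, Cd68 and Csf1r were named after their values were seen, to complete counts. Apoa2 was also named after its values were seen, to give the bright end of its list. The members, lists and rule were chosen with earlier results of these data known.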

Additional observations from a re-analysis of the deposited data

Results flagged for a closer look

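In groups of 4 samples, the gap between the most distant sample and its nearest neighbour was set against the whole range of the group, with a critical value of 0.829. Of 12 such tests of the members, 3 passed, and chance gives about 1 in 20. Saa3 in fullerene 21 was 12.35, with a gap of 0.96 of the range, and Saa1 in fullerene 21 was 10.3, with a gap of 0.86. Both come from 1 sample and are not independent. Saa2 in BayTubes 18 was 5.56, below the other BayTubes samples, with a gap of 0.87. BayTubes 18 also had the lowest Saa1 (8.88) and Saa3 (10.67) of its group, and it shared its array with Ctrl 2.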

How the results depend on the processing

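Of 460 values of the 24 changes against Ctrl under alternatives, 441 kept their side of the threshold, 12 lost it and 7 gained it, and 436 kept their sign; those that did not were changes that never passed. The rCNT changes passed in 76 of 76 (Saa3 4.38, with array as a fixed term, to 7.27), though those within a slide rest on 1 rCNT sample. The 76 include those of Saa4, which was tested only because of its rCNT samples. Both totals, of 460 and 76 values, include alternatives that could hardly move a member. Each member has 1 spot, so averaging spots kept its values, as did dropping the filter. Scaling changed little because the sorted values of the samples were already nearly alike. The totals therefore overstate how hard the results were tried. Saa3 after Graphite did not pass with no array block (2.65), array as a fixed term (1.61), only the 2 groups (2.75) or within slide 1 (2.74), and was 2.23 to 2.87 with 1 sample left out. Saa1 after BayTubes was 1.73 within slide 1 and 1.31 to 1.79 with 1 sample left out, and Saa3 was 2.85 within slide 1, which held 1 Ctrl sample. Saa3 after tCNT passed with only the 2 groups (2.36). Saa1 after Graphite passed within slide 2 (0.90). The fits without fullerene 21 and without the 3 samples on an array with rCNT were added after seeing the data. Both leave out fullerene 21, which its own Saa3 and Saa1 values picked out, so passing in them is no independent support. Saa3 after tCNT passed at 2.21 in both, and Saa1 after tCNT at 0.99 in both. Saa1 after Graphite passed without fullerene 21 (1.02). Counts of called genes ranged from 1017 to 4185 for rCNT (3600 as reported), 5 to 2003 for BayTubes (526), 0 to 544 for Graphite (187), 0 to 310 for tCNT (117), 0 to 793 for fullerene (43) and 0 to 8 for SES (0). The causes were not tested, except that fits with 2 groups or 1 slide hold fewer samples. No paired analysis was possible because the groups share no sample numbers, so samples were paired only by array, in the fit with array as a fixed term. The signals carry no detection calls, so how far Saa2 and Saa4 stood above background is not known.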
